A study of Mus musculus with 6 samples.

Results

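Molecular chaperones and their partners were followed in mouse mammary epithelial cells after knockdown of Id4. The members are the genes of the deposited count table whose symbol names an HSP70, HSP90, HSP60, HSP10, HSP110 or small heat shock protein, or a J-domain protein of classes A, B or C, together with 11 further genes of the heat shock and endoplasmic reticulum (ER) stress systems. They numbered 81 of 25655 genes. By the compartment in which each product is known to work, 43 were placed in the cytosol or nucleus, 21 in the ER and 10 in mitochondria. Xbp1 and Ddit3, transcription factors of ER stress, stood apart, 2 were left unplaced and 3 were pseudogenes.

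Comma-Dβ cells, a mouse line of mammary epithelium, were used at passage 29 and grown with serum, insulin and epidermal growth factor. One arm received 20 nM of a non-targeting siRNA pool (NT) and the other 20 nM of a siGENOME pool against mouse Id4 (siID4). All 6 libraries, 3 biological replicates per arm, came from transfected cells harvested 48 hr later. The NT pool was of the ON-TARGETplus line, so target and product line cannot be told apart, and a single cell line was used.

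Chaperones bind unfolded protein. HSP70 proteins do so in cycles of ATP hydrolysis that J-domain proteins start and nucleotide exchange factors end, and HSP90 proteins act later on nearly folded clients. Cytosolic heat shock genes are driven by the factor HSF1, whereas ER chaperone genes respond to the unfolded protein response (UPR), a signalling system with the sensors ATF6, IRE1 (gene Ern1) and PERK (gene Eif2ak3). Secretory epithelia such as the mammary gland rely on the ER branch to fold milk and membrane proteins.

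Depth was 19216688 to 23095620 counts per library, of which the members took 1.46% to 1.74%. Id4 itself was at 135, 114 and 118 CPM (counts relative to library size, with TMM scaling) in NT replicates 1 to 3 and at 59.4, 62.2 and 48.2 CPM in siID4, a log2 fold change of −1.11 with an SE of 0.10 (adjusted p = 8.65e-04). The 6 epithelial markers examined summed to 2240 to 2576 CPM in NT and 2046 to 2388 CPM in siID4; within them Cdh1 rose (log2 fold change 0.24, adjusted p = 0.0234) and Epcam fell (−0.25, adjusted p = 0.0211). The 5 fibroblast markers summed to 309 to 414 CPM in NT and 376 to 446 CPM in siID4. Pdgfrb rose (0.43, adjusted p = 0.0217), Pdgfra fell (−0.62, adjusted p = 0.0257), Dcn was at 34.6 to 72.0 CPM over the 6 libraries, and Lum was at or near 0. The summed leukocyte, endothelial and adipocyte markers reached at most 2.59, 1.36 and 0.317 CPM. Tie1 and Plin1 were at 0 in every library. The part of these marker genes in the results was not tested.

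Most chaperone genes did not pass the test of the siRNA without the replicate block described below. Of the 72 members with enough counts to be tested, Dnajc12 and Dnajc16 rose and Pdia6, Hspa12a and Dnajb14 fell, whereas 67 did not pass an adjusted p of 0.05. DESeq2 and limma-voom, which called 11.4% and 9.55% of all genes, called the same 5 genes. These 5 are 6.94% of the members tested, beside 9.55% of all 13941 genes tested (4.62% higher and 4.93% lower). With scaling by library totals alone, 829 genes were called higher and 564 lower, against 644 and 687, and Dnajb14 lost its call. The median log2 fold change was −0.04 over the members and 0.00 over all genes. For 57 of the 72, the 95% interval of the log2 fold change lay within ±0.5, so that changes beyond 1.41-fold were outside it. The other 9 members had at most 6.63 counts in any library and were not tested; Dnajb13 and the pseudogene Hspe1-ps2 were at 0 throughout.

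**Figure D1:**
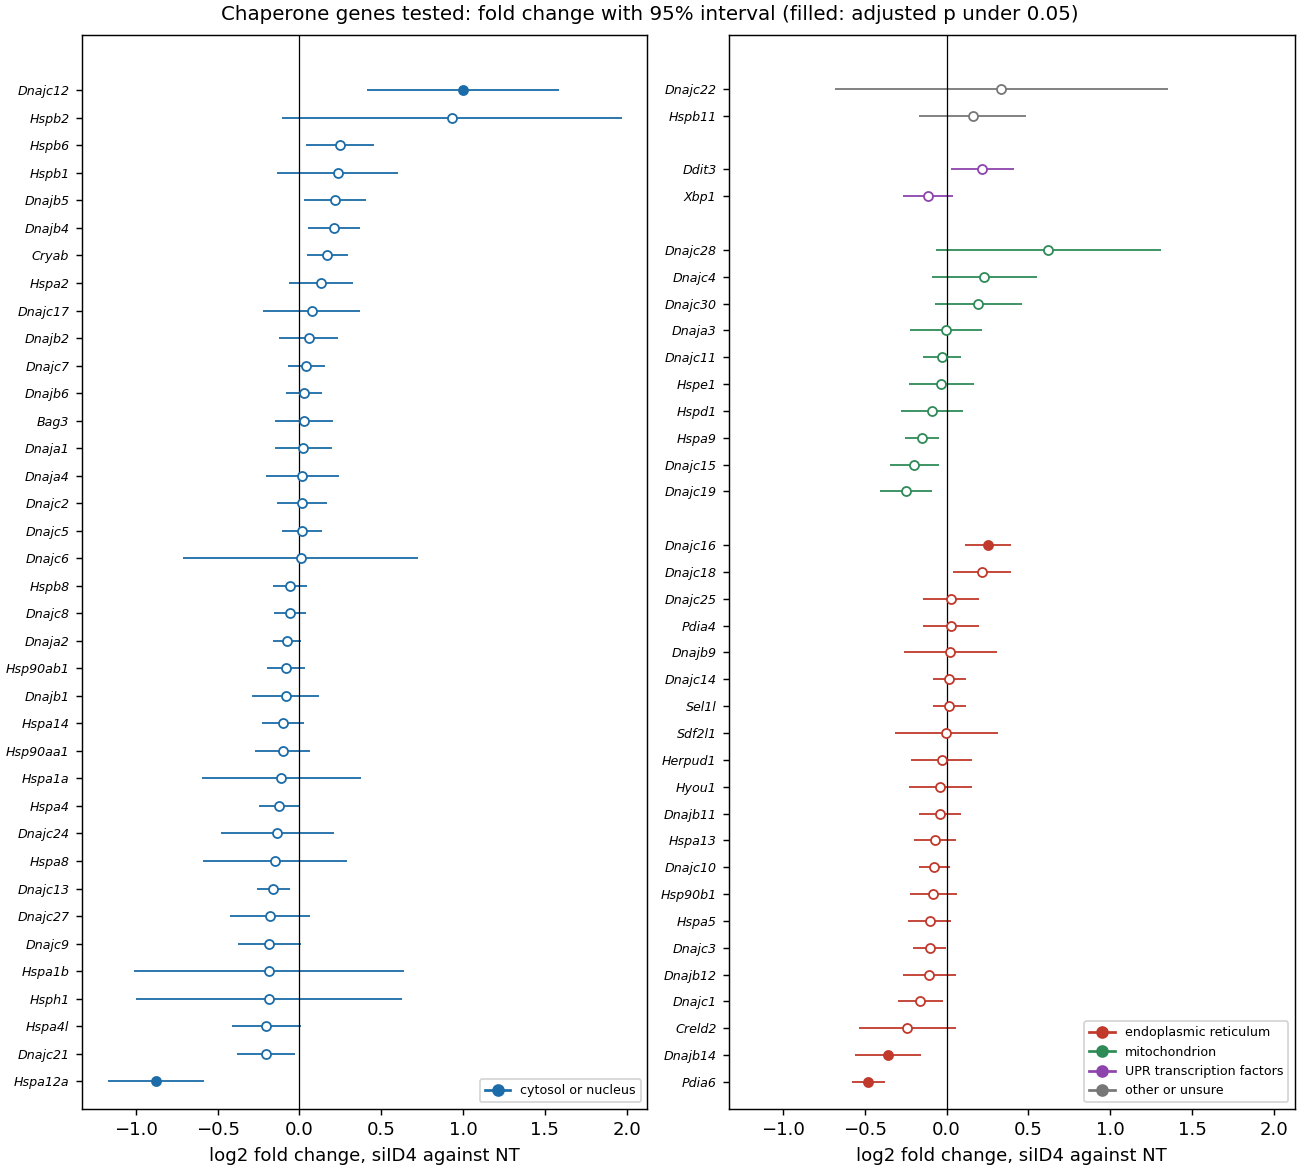
Log2 fold change of siID4 against NT (horizontal axis) for each of the 72 chaperone genes tested, by compartment; points are estimates, lines are 95% intervals from edgeR and filled points have an adjusted p under 0.05. Most intervals include 0, Pdia6 (−0.48) and Hspa12a (−0.88) stand to the left, and Dnajc12 (1.00) to the right with a wide interval.

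The compartments gave similar medians. The cytosolic members had 1 higher and 1 lower of 37 tested, with a median log2 fold change of −0.06. The ER members had 1 higher and 2 lower of 21, with a median of −0.04. The called genes are 5.41% of the cytosolic and 14.3% of the ER members tested, beside 9.55% of all genes. None of the 10 mitochondrial members passed in edgeR without the block, 3 of them having an unadjusted p under 0.05. DESeq2 and limma-voom called 0 as well, and the median was −0.03. The counts called are small, and no test of a difference between the cytosol and the ER was made.

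The arms share replicate numbers, and same-numbered libraries deviated together, so the test was repeated with replicate number as a block. That fit called 37 of the 72 members, 11 higher and 26 lower, or 51.4% beside 36.1% of all genes (17.9% higher and 18.3% lower). All 5 members named above were among them. Of the 32 members called with the block alone, 30 had a log2 fold change smaller than 0.25 in size, the smallest being 0.07 in size. In the cytosol 7 were higher and 12 lower, in the ER 2 and 9, and in mitochondria 1 and 4. The direction was the same in all 3 numbered pairs for 69.4% of the members and for 59.6% of all genes.

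Pdia6 showed the clearest difference among the ER members. It encodes a protein disulfide isomerase, an enzyme that forms and rearranges disulfide bonds in the ER lumen and that also binds the UPR sensors PERK and IRE1. The gene (ENSMUSG00000020571) is protein-coding and spans chr12:17266545-17284770 on the plus strand of GRCm38. Its level was 416, 445 and 441 CPM in NT replicates 1 to 3 and 303, 312 and 319 CPM in siID4. The lowest NT library stood above the highest siID4 library, and the arms did not overlap. The means were 434 ± 15.5 and 311 ± 8.06 CPM (SD, n = 3), which is −0.48 on the log2 scale with an SE of 0.04 (adjusted p = 6.57e-04). The differences within the numbered pairs were −0.46, −0.51 and −0.47 on the log2 scale. Pdia6 passed in all 6 fits that left out one library, with adjusted p up to 0.00986.

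The close relative Pdia4 did not show this difference. It encodes another disulfide isomerase of the ER lumen, and was at 217, 246 and 256 CPM in NT and 222, 251 and 260 CPM in siID4 (log2 fold change 0.03, 95% interval −0.15 to 0.20). Same-numbered libraries lay close together and replicate 1 was the lowest in both arms. Among isomerases outside the members, Pdia5 rose from 13.9 to 16.2 CPM in NT to 18.9 to 19.3 CPM in siID4 (log2 fold change 0.36, adjusted p = 0.0303), a call kept in 1 of the 6 leave-one-out fits. The abundant isomerase genes P4hb and Pdia3, named after their values were seen, had log2 fold changes of −0.02 (95% interval −0.12 to 0.07) and 0.00 (−0.10 to 0.10).

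**Figure D2:**
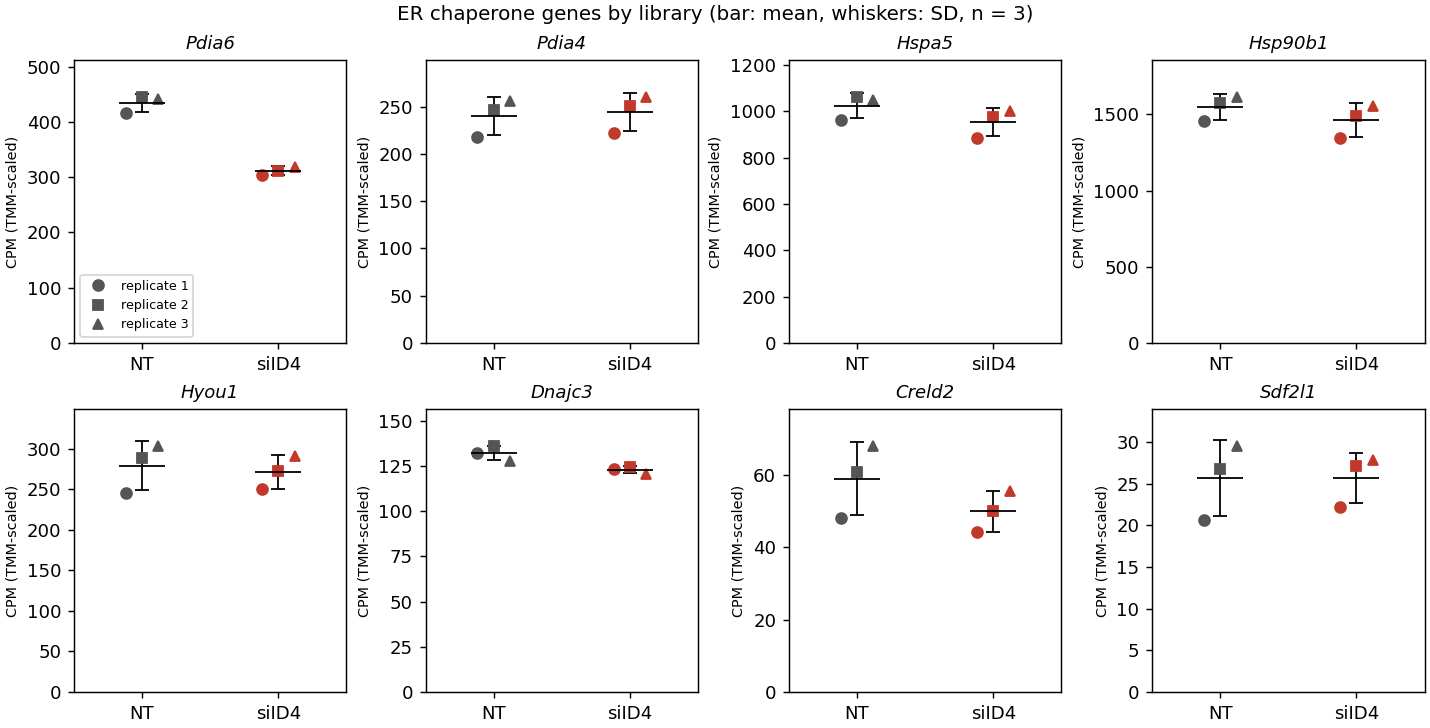
Level of 8 ER chaperone genes in each library, in TMM-scaled CPM on a linear axis from 0; points are libraries, with the shape giving the replicate number, horizontal bars are means and whiskers are SD (n = 3 per arm). Pdia6 is the gene whose siID4 libraries (303 to 319 CPM) all lie well under NT (416 to 445 CPM), whereas in Pdia4, Hyou1 and Sdf2l1 replicate 1 is lowest in both arms.

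The Pdia6 promoter shares a sequence element with those of other ER members. The ER stress response element, CCAAT, then 9 bases, then CCACG, is the site through which ATF6 acts together with NF-Y. RefSeq promoters (GRCm38.p6, 250 bases before to 50 bases after the RefSeq gene start, which can differ from the start of the gene spans given here) were found for 63 of the 81 members and searched on both strands. The element was in the promoters of 5 of 18 ER members, 0 of 35 cytosolic and 0 of 7 mitochondrial ones, and in 0.137% of the 27025 genes of the table. The matches are shown because all 5 genes had log2 fold changes below 0. So had 7 of the 13 other ER members with a promoter entry, 41 of the 72 members tested and 6942 of all 13941 genes tested. Capitals mark the element, and each line runs 5′ to 3′ on the strand of the gene:
Pdia6, chr12:17266486-17266514, plus strand: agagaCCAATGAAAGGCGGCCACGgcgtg
Hspa5, chr2:34772020-34772048, plus strand: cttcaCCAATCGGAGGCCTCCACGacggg
Hsp90b1, chr10:86705633-86705661, minus strand: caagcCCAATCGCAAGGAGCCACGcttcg
Dnajc3, chr14:118937822-118937850, plus strand: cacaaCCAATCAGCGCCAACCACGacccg
Creld2, chr15:88819515-88819543, plus strand: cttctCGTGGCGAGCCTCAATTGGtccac
In Creld2 it lies in the opposite orientation, and Hsp90b1 holds a further copy in that orientation. A match is a description of these letters only, not evidence of binding.

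The 5 genes with the element had log2 fold changes from −0.48 to −0.08, with a median of −0.10. The median was 0.00 for the 13 other ER members with a promoter entry. Only exact matches within the window were counted, so the others may hold variant or more distant copies. Hyou1 (−0.04), Hspa13 (−0.07) and Dnajc18 (0.22) had no entry and are in neither group. Without the block Pdia6 alone of the 5 passed, and of the 13 others Dnajb14 was lower and Dnajc16 higher. With the replicate block all 5 were lower, while 4 of the 13 others were lower and 1 higher. Of all genes, 18.3% were lower and 17.9% higher with the block. The split by this element was noticed after the values were seen and was not tested. Another form of the element, ATTGG, then 1 base, then CCACG, was found in Herpud1 and Dnajb11 (0.0444% of all genes), whose log2 fold changes were −0.03 and −0.04. The sequence TGATGCAAT, bound by ATF4 and its partners, was in none of the 63 member promoters and in 0.222% of all genes.

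Hspa5 encodes BiP, the HSP70 of the ER and the chaperone that holds the UPR sensors inactive. It was at 964, 1062 and 1047 CPM in NT and 886, 974 and 1001 CPM in siID4 (−0.10 on the log2 scale with SE 0.06, adjusted p = 0.316). The arms overlapped, and with the block the difference of the same size passed (SE 0.03, adjusted p = 0.00196). Hsp90b1, the ER form of HSP90, was at 1455, 1574 and 1614 CPM in NT and 1343, 1491 and 1557 CPM in siID4 (log2 fold change −0.08, adjusted p = 0.477, 0.0143 with the block). Both genes were lowest in replicate 1 of each arm, and the siID4 library was under its numbered NT library in all 3 pairs.

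Other ER members gave small values. Dnajc3, whose product is a J-domain partner of BiP, had non-overlapping arms of 128 to 136 CPM in NT and 121 to 125 CPM in siID4 (log2 fold change −0.10, adjusted p = 0.181, 0.00839 with the block). Creld2, an ER stress-inducible gene, was at 48.2, 60.8 and 68.1 CPM in NT and 44.3, 50.1 and 55.6 CPM in siID4. Its log2 fold change of −0.24 did not pass (adjusted p = 0.293) and passed with the block (1.14e-04) and without NT replicate 1 (0.0460). Within each arm replicate 1 was again the lowest, so that the arms overlapped while every pair pointed the same way.

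Several further lumenal or ER-associated factors stood close to 0. Hyou1, the large HSP70 that exchanges nucleotide on BiP, had a log2 fold change of −0.04 (95% interval −0.23 to 0.15), and Sdf2l1, a partner of BiP, 0.00 (−0.31 to 0.31). Herpud1 and Sel1l, both part of the machinery that returns misfolded protein to the cytosol for degradation, had −0.03 (−0.22 to 0.16) and 0.02 (−0.08 to 0.12). The J-domain partners of BiP Dnajb9 and Dnajb11 had 0.02 and −0.04. None of these 6 passed with the block either.

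Among ER members with a J domain, Dnajb14 fell and Dnajc16 rose. Dnajb14, which encodes a J-domain protein anchored in the ER membrane, fell from 34.0, 31.8 and 28.1 CPM in NT to 24.8, 25.8 and 22.6 CPM in siID4 (−0.36 on the log2 scale with SE 0.09, adjusted p = 0.0377). Its homologue Dnajb12 had −0.10 (adjusted p = 0.410, 0.0221 with the block). Dnajc16 rose from 32.2, 30.3 and 30.9 CPM to 37.7, 37.9 and 35.8 CPM (0.25, SE 0.06, adjusted p = 0.0373). Neither pair of arms overlapped, as was the case for 29.2% of the members and 30.9% of all genes (15.5% with siID4 higher and 15.4% lower). The calls were near the threshold: Dnajb14 passed without NT replicate 3 (0.0220) and in none of the other 5 leave-one-out fits (up to 0.123), nor with library totals (0.0553), and Dnajc16 passed without NT replicate 1 (0.0457) and in none of the other 5 (up to 0.154).

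The transcription factors of ER stress did not pass without the block. Xbp1, whose mRNA is spliced by IRE1 to give the active factor, was at 72.4, 85.5 and 77.6 CPM in NT and 68.9, 74.7 and 73.6 CPM in siID4 (log2 fold change −0.12, adjusted p = 0.332, 0.0133 with the block). Counts per gene do not separate its spliced from its unspliced form. Ddit3, which encodes the PERK-branch factor CHOP, was at 20.6, 18.5 and 17.2 CPM in NT and 22.5, 21.3 and 21.6 CPM in siID4 (0.22, adjusted p = 0.147, 0.00529 with the block). The arms of Ddit3 did not overlap and those of Xbp1 did.

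Among other genes of the ER pathway, Uggt1 showed a fall of similar size to that of Pdia6. Uggt1, the glucosyltransferase that returns unfolded glycoproteins to the lectin chaperones, was at 242, 255 and 264 CPM in NT and 170, 173 and 175 CPM in siID4 (−0.56 on the log2 scale with SE 0.05, adjusted p = 3.91e-04). Of 19 folding enzymes and lectins, Uggt1 and the prolyl isomerase gene Fkbp2 fell and Pdia5 rose in edgeR and limma-voom. These are 15.8% of the list, beside 9.55% of all genes in edgeR. The median of the 19 was −0.03, and with the block 4 of them were higher and 7 lower (57.9% beside 36.1%). DESeq2 called 5 of them, adding the lectin chaperone gene Calr (0.21) and the collagen chaperone gene Serpinh1 (0.22) on the higher side, both named after their values were seen (adjusted p = 0.0765 and 0.0850 in edgeR, 1.53e-07 and 3.15e-08 with the block). Over all genes DESeq2 called 11.4%. Fkbp2 (−0.27, adjusted p = 0.0470) lost its call in all 6 leave-one-out fits and with library totals. Of 18 tested genes of ER translocation and degradation, 5 fell and 0 rose, 27.8% beside 9.55% of all genes (4.62% higher and 4.93% lower). This list, like the others, was chosen with earlier results of these data known, so its share is a description only. The median was −0.02, and with the block 4 were higher and 6 lower (55.6% beside 36.1%). The 5 included Ssr3 and Sec63, subunits of the translocation apparatus (−0.23 and −0.24), and Edem1 and Edem3, mannosidase-like factors of degradation (−0.23 and −0.21). Sec63 kept its call in 4, Ssr3 in 3 and Edem1 and Edem3 each in 1 of the 6 leave-one-out fits, with adjusted p up to 0.119 without siID4 replicate 2, and Edem3 lost it with library totals.

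The UPR sensor genes had values below 0. Eif2ak3, which encodes PERK, fell from 42.4, 43.8 and 39.0 CPM to 32.0, 34.1 and 32.9 CPM (−0.34 on the log2 scale with SE 0.07, adjusted p = 0.0167), and kept this call in 3 of the 6 leave-one-out fits (0.0770 without NT replicate 2). Ern1 and Atf6, named after their values were seen, had −0.26 (adjusted p = 0.0543) and −0.34 (adjusted p = 0.0937), and both passed with the block (1.53e-05 and 2.85e-08) and in DESeq2. Over the 10 sensors and regulators 1 fell and 0 rose in edgeR and limma-voom, with a median of 0.00. DESeq2 called 3, beside 11.4% of all genes, and the block fit called 2 higher and 4 lower. In edgeR that was 10% of the list without the block and 60% with it, beside 9.55% and 36.1% of all genes. Of 18 targets of the ATF4 branch, 3 rose and 2 fell, a mixed set in which Sesn2 and Stc2 (0.52 each) rose and the amino acid synthesis genes Psat1 (−0.29) and Asns (−0.26) fell. DESeq2 and limma-voom called the same 5 genes, which are 27.8% of the list, beside 9.55% of all genes in edgeR. With the block 8 were higher and 5 lower, 72.2% of the list beside 36.1% of all genes. Sesn2 kept its call in 4 and Stc2 in 3 of the 6 leave-one-out fits, and Asns lost it without siID4 replicate 2 (adjusted p = 0.0663).

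In the cytosol Hspa12a and Dnajc12 were the only members to pass without the block. Hspa12a encodes a divergent relative of the HSP70 family. The gene (ENSMUSG00000025092) spans chr19:58795750-58943654 on the minus strand of GRCm38. It was at 7.93, 9.97 and 8.98 CPM in NT and 4.40, 5.03 and 5.17 CPM in siID4, with a gap between the arms. Its log2 fold change was −0.88 (SE 0.13, adjusted p = 0.00450), and the call held in all 6 leave-one-out fits (highest adjusted p 0.0311). Dnajc12, a cochaperone of the aromatic amino acid hydroxylases, rose from 1.46, 1.72 and 0.836 CPM to 2.59, 3.03 and 2.32 CPM (1.00, SE 0.26, adjusted p = 0.0437). At this low level the call was lost in all 6 leave-one-out fits, where adjusted p ran from 0.0601 to 0.174, and it was not tested at a mean of at least 5 CPM.

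The bulk of cytosolic chaperone mRNA lay in a few genes. Per length, in TMM-scaled RPKM, the CPM per kilobase of gene length, Hsp90ab1 stood highest among the tested members at a mean level of 1572 RPKM in NT, followed by Hspa8 at 1215 RPKM. Hspa8, the constitutive HSP70, made up 51.0% ± 3.60 of all HSP70-family mRNA in NT and 50.6% ± 3.24 in siID4 (SD, n = 3), per length. Hspa5 came next with 19.4% ± 1.83 and 19.8% ± 1.41, and the mitochondrial Hspa9 held 9.80% ± 1.38 and 9.67% ± 1.34. Among the 3 members whose symbol begins with Hsp90, Hsp90ab1 held 59.5% ± 0.562 in NT and 59.7% ± 1.37 in siID4. These shares differed between the arms by less than the SD within an arm.

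The HSP90 genes of the cytosol had small values. Hsp90ab1, the constitutive form, was at 3513, 3641 and 3886 CPM in NT and 3431, 3399 and 3617 CPM in siID4 (log2 fold change −0.08, adjusted p = 0.379, 0.0252 with the block). Hsp90aa1, the inducible form, was at 1083, 1175 and 1285 CPM in NT and 1018, 1096 and 1190 CPM in siID4 (−0.10, adjusted p = 0.445, 0.00235 with the block). In both genes the arms overlapped, and replicate 3 was the highest in each arm.

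The heat-inducible genes varied between replicate numbers. Their range of replicate-number means over both arms had a median of 0.27 log2 units, beside 0.17 over all genes tested. In Cryab, Dnajb4 and Hspb8 the size of the siRNA difference exceeded this range. None of the 14 heat-inducible members passed in edgeR without the block, 2 had an unadjusted p under 0.05, and DESeq2 and limma-voom called 0 as well. With the replicate block 7 of the 14 passed, 3 higher and 4 lower, or 50% beside 36.1% of all genes. On the log2 scale they deviated from their own 6-library mean by −0.15, −0.03 and 0.20 on average in NT replicates 1, 2 and 3, and by −0.17, 0.02 and 0.12 in siID4. Replicate 1 was thus low and replicate 3 high in both arms. In a test of the replicate number within the block fit, added after these values were seen, 9 of the 14 passed (64.3%), as did 31 of the 72 members (43.1%) and 30.5% of all genes. What the libraries of one number share is not stated in the labels.

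**Figure D3:**
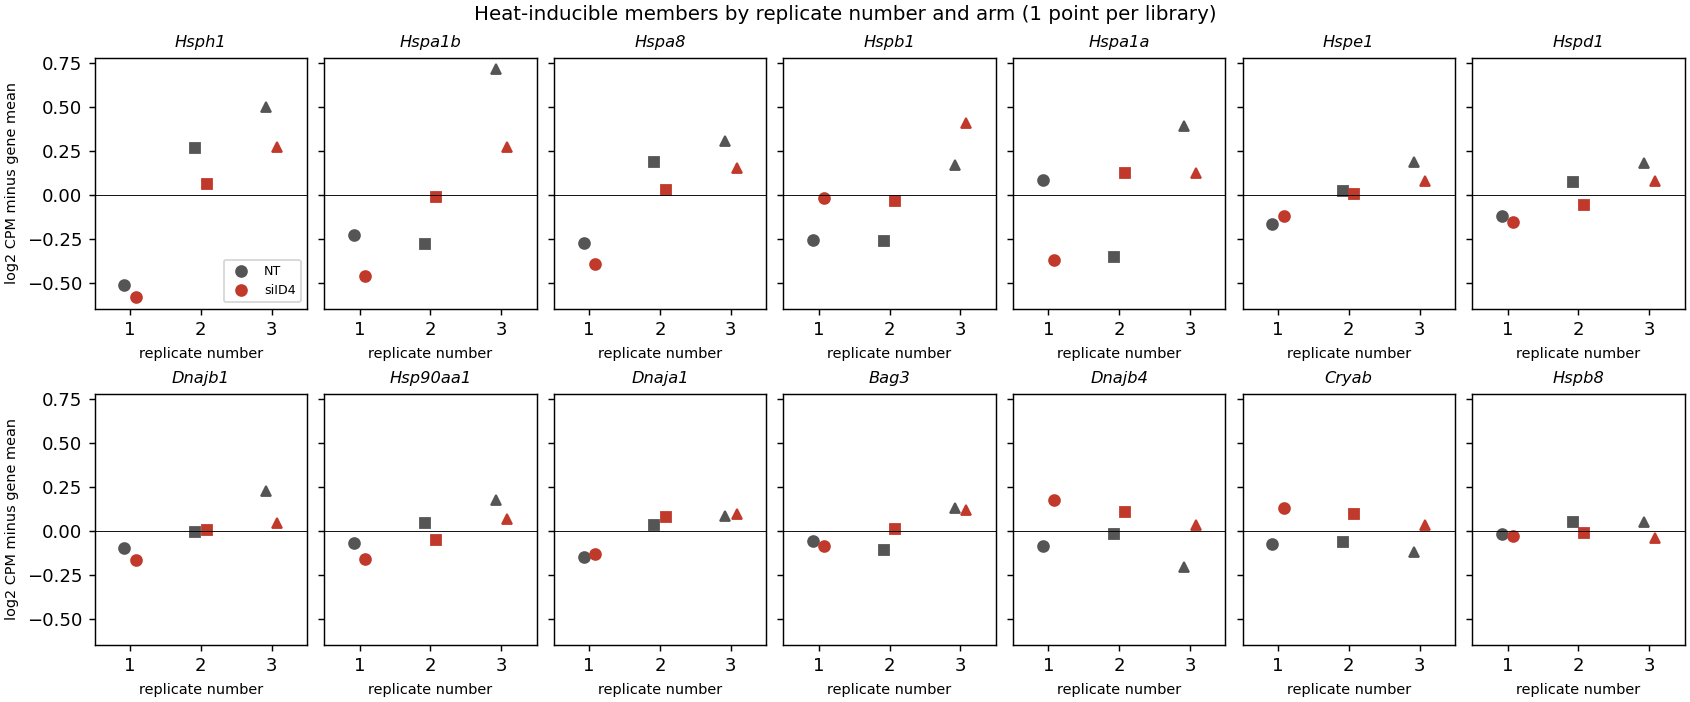
Log2 CPM of the 14 heat-inducible members in each library, relative to the gene's mean over the 6 libraries (vertical axis), against replicate number (horizontal axis); 1 point per library, grey for NT and red for siID4, ordered by the range between numbers. Hsph1, Hspa8, Hspd1 and Dnaja1 are lowest in replicate 1 of both arms, whereas Cryab, Dnajb4 and Hspb8 show little of this.

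Hsph1 had the widest such range. It encodes HSP110, a nucleotide exchange factor for cytosolic HSP70, and spans chr5:149614287-149636376 on the minus strand of GRCm38. It was at 143, 247 and 290 CPM in NT and at 137, 214 and 248 CPM in siID4. Replicate 1 was lowest in both arms, and the highest library exceeded the lowest 2.02-fold in NT and 1.81-fold in siID4. The log2 fold change of the siRNA was −0.19 (SE 0.33, adjusted p = 0.786). With the block it was −0.17 (SE 0.03, adjusted p = 4.40e-05), and the replicate number itself had an adjusted p of 1.99e-16.

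Hspa8 was likewise lowest in replicate 1 of both arms. It was at 1596, 2189 and 2383 CPM in NT and 1465, 1960 and 2141 CPM in siID4, with pair differences of −0.12, −0.16 and −0.15 on the log2 scale. The log2 fold change of −0.15 had an SE of 0.18 without the block (adjusted p = 0.677) and 0.03 with it (adjusted p = 4.67e-05). The difference between replicates 3 and 1, averaged over the arms, was 0.56 log2 units.

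The strongly inducible HSP70 genes Hspa1a and Hspa1b did not pass in either fit. They are near-identical neighbours on chromosome 17 (GRCm38), so their separate values depend on how the authors' counting divided shared reads; at least 92.5% of the pair's CPM was given to Hspa1b. Summed, they were at 110, 104 and 205 CPM in NT and 92.3, 127 and 152 CPM in siID4. NT replicate 3 stood highest. The summed log2 fold change was −0.18 (SE 0.33, adjusted p = 0.792, 0.676 with the block), and 2 of the 3 pairs were lower in siID4 for each gene. Dnajb1, the J-domain partner of these HSP70 proteins, had −0.08 (adjusted p = 0.620), Dnaja1 had 0.02 (0.883) and Bag3, an exchange factor that links HSP70 to autophagy, 0.03 (0.878).

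The small heat shock proteins, which hold unfolded protein without using ATP, gave values above 0 in 4 of 5 tested genes. So did 6999 of all 13941 genes tested. Hspb1 was at 60.6, 60.4 and 81.8 CPM in NT and 71.6, 70.8 and 96.2 CPM in siID4 (0.23 on the log2 scale with SE 0.16, adjusted p = 0.409). Replicate 3 was high in both arms, and the pair differences were 0.24, 0.23 and 0.23. With the block Hspb1 passed (SE 0.04, adjusted p = 2.64e-06). Cryab, which encodes alpha-B crystallin, had non-overlapping arms of 45.7 to 47.6 CPM in NT and 50.8 to 54.3 CPM in siID4 (0.17, adjusted p = 0.0904, 0.00351 with the block). Hspb8, the small partner of BAG3, was at 87.0 to 91.4 CPM in NT and 85.7 to 87.3 CPM in siID4 (−0.06, adjusted p = 0.492, 0.204 with the block). Hspb6 and Hspb2, named after their values were seen, had 0.25 (adjusted p = 0.127, 0.0244 with the block) and 0.93 (0.245, 0.0346 with the block). Hspb2 lay near the floor, at 0.261 to 0.552 CPM in NT and 0.408 to 1.25 CPM in siID4.

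**Figure D4:**
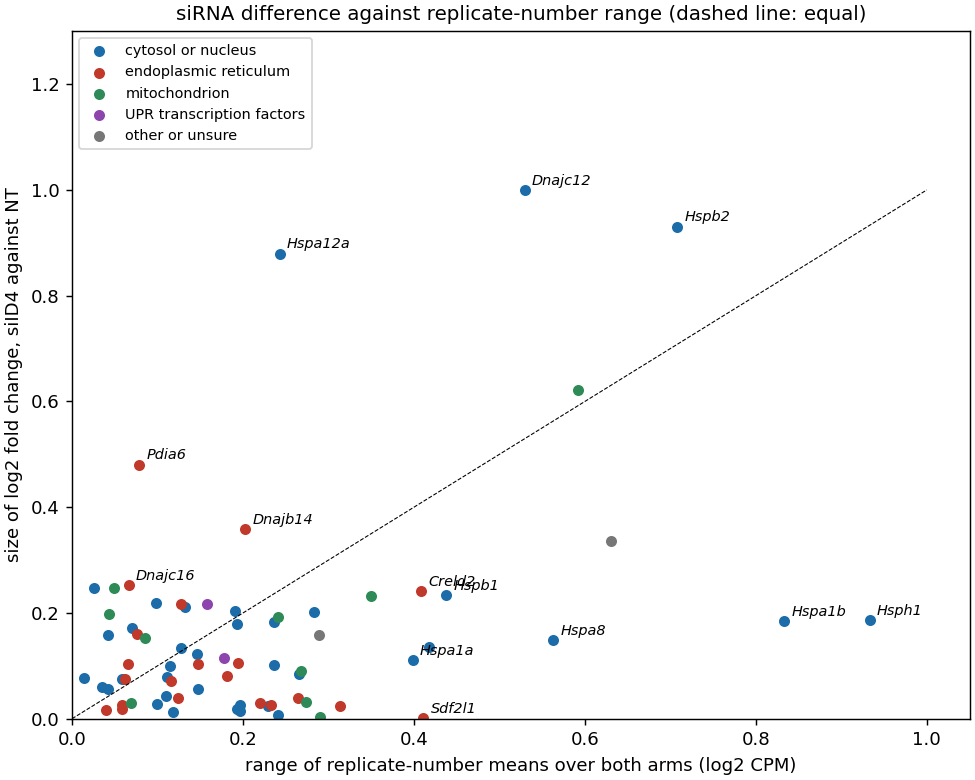
Size of the log2 fold change of siID4 against NT (vertical axis) against the range of the 3 replicate-number means over both arms in log2 CPM (horizontal axis) for the 72 members tested, coloured by compartment; the dashed line marks equality. Of the 72 members, 46 lie under the line, with Hsph1, Hspa1b and Hspa8 far to the right, while Pdia6 and Hspa12a lie well above it. The range covers more means, each of fewer libraries, than the arm difference, so noise alone can put a gene under the line. The share of all genes under it was not counted. The median range was 0.19 over the members and 0.17 over all genes tested.

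Mitochondrial chaperones, which fold proteins imported into the matrix, did not pass without the block. Hspa9, the mitochondrial HSP70, was at 686, 678 and 696 CPM in NT and 621, 587 and 645 CPM in siID4 (−0.15 on the log2 scale with SE 0.05, adjusted p = 0.0695, 2.11e-05 with the block). The arms did not overlap. Hspd1 and Hspe1 encode the HSP60 and HSP10 of one folding chamber and lie head to head on chromosome 1. Hspd1 was at 706, 810 and 872 CPM in NT and 692, 740 and 813 CPM in siID4 (−0.09, adjusted p = 0.557, 0.00918 with the block). Hspe1 was at 173, 197 and 221 CPM in NT and 179, 195 and 205 CPM in siID4 (−0.03, adjusted p = 0.868, 0.507 with the block). Both were lowest in replicate 1 and highest in replicate 3 of each arm.

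The shared promoter of Hspd1 and Hspe1 carries a heat shock element, the HSF1 motif of GAA, 2 bases, TTC, 2 bases and GAA, in overlapping copies on both strands. It is shown because both genes varied with the replicate number. Capitals mark one copy, 5′ to 3′ on the strand of Hspe1:
Hspe1, chr1:55088056-55088084, plus strand: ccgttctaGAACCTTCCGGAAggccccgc
The motif was in the promoters of 3 of the 11 heat-inducible members with an entry, of 4 of 63 members and of 0.662% of all genes, read on both strands. The others were Hsph1 and Dnajb6. Hspd1 and Hspe1 are counted separately here, although their matches are the same sites. Only exact matches within the window were counted, and Hspa1a, Hspa1b, Hspb1 and Dnajb1 had none. The range between replicate numbers was 0.93 log2 units for Hsph1, 0.27 for both Hspd1 and Hspe1 and 0.10 for Dnajb6. Without a match, it was 0.83 for Hspa1b, 0.44 for Hspb1, 0.40 for Hspa1a and 0.27 for Dnajb1. A relation between the motif and this range was not tested.

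The gene of HSF1 and those of the cytosolic cochaperones did not pass in edgeR without the block. Hsf1 was at 49.7, 63.1 and 61.1 CPM in NT and 52.1, 58.3 and 59.2 CPM in siID4 (log2 fold change −0.04, adjusted p = 0.857), and replicate 1 was again the lowest in both arms. Without the block none of the 20 genes of this list passed in edgeR or limma-voom, 3 having an unadjusted p under 0.05 in edgeR. The median was −0.07. With the block 2 were higher and 8 lower, 50% of the list beside 36.1% of all genes. DESeq2 called 1 of the 20 lower, Fkbp5, an HSP90 cochaperone of steroid receptors named here after its values were seen. Its log2 fold change was −0.29, with adjusted p = 0.0553 in edgeR, 0.0227 in DESeq2 and 3.72e-06 with the block in edgeR. Over all genes DESeq2 called 11.4%. The replicate number passed in 13 of these 20 (65%, beside 30.5% of all genes). Of 14 subunits of the chaperonin TRiC and of prefoldin, which fold actin and tubulin, 1 fell and 0 rose in edgeR and limma-voom. The median was −0.12, and with the block 1 was higher and 8 lower (64.3% beside 36.1% of all genes). DESeq2 called 2 of the 14, Cct5 and Cct7, the latter named after its values were seen (−0.19, adjusted p = 0.0663 in edgeR, 1.26e-06 with the block). The gene called in edgeR was Cct5, at 622, 642 and 672 CPM in NT and 533, 514 and 548 CPM in siID4 (−0.28, SE 0.05, adjusted p = 0.00702), which did not pass without siID4 replicate 2 (0.0533). Of 10 mitochondrial cochaperones and proteases none passed in edgeR, DESeq2 or limma-voom, 1 having an unadjusted p under 0.05 in edgeR, and with the block 1 was higher.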

How the data were processed

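RNA of 6 libraries, 3 NT and 3 siID4, (1 µg input) went into stranded poly(A) libraries, per the labels' protocols. The authors deposited 1 table of expected counts per gene, which also gives gene lengths. Tools named in the submitters' processing notes are cutadapt, STAR and RSEM, with mm10 as build. The sources used here do not give annotation release, strand setting or table filter. Expected counts divide reads between near-identical genes by estimate. They were rounded to whole numbers for testing. Column names gave each library's arm and number.

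Genes were tested with edgeR 4.0.16 (R 4.3.3; quasi-likelihood, robust, TMM, filterByExpr, group only), p adjusted by Benjamini-Hochberg over 13941 genes, with a threshold of 0.05. SE came from the F statistic. The biological coefficient of variation was 7.83%. Depth ranged from 19216688 to 23095620 counts per library. Libraries within an arm differed beyond sampling noise (5.09 to 13.6 chi-square units per gene), so none was counted as a duplicate. An exact permutation test of 3 against 3 cannot give p below 0.1. The labels call replicates biological without naming separate cultures, so p-values measure the spread between these libraries.

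Same-numbered libraries deviated together in all 3 pairs (correlation across 13941 genes, which are not independent replicates, 0.51, 0.16 and 0.45), so blocked values are given beside results whose call or count they change. Pair differences use log2(CPM + 0.5). Alternatives were other scalings, no filter, a mean of at least 5 CPM, DESeq2 1.42.0, limma-voom (limma 3.58.1), the block and leaving out each library. The fit was tested on simulated counts. Members, compartments and lists were chosen with earlier results of these data known. Genes named are Id4, called members, fixed chaperones of each family, ends of ranges and up to 4 called genes per list. Coordinates are from GENCODE M21 (GRCm38), in which all 81 members matched.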

Additional observations from a re-analysis of the deposited data

How the results depend on the processing

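With the replicate block the counts of called genes rose to 5038 over all genes, 37 members, 19 cytosolic, 11 ER and 5 mitochondrial members. All 5 members called without the block were called with it, and pairing by replicate number added calls for 32 members and for genes of every list. Leaving out one library gave 445 to 1351 genes called, against 1331 with all libraries. Over the same 6 fits 2 to 4 members were called, with 1 cytosolic member in every fit, 1 to 3 ER members and 0 mitochondrial members. The lowest count of genes came from leaving out siID4 replicate 2. Leaving out NT replicate 2 gave 631 genes and leaving out siID4 replicate 1 gave 884. Members were 3 without NT replicate 3 and 2 without NT replicate 2 or any one siID4 library. At a mean of at least 5 CPM 1 cytosolic member was called, since Dnajc12 was not tested there. With library totals 829 genes were higher and 564 lower, against 644 and 687 with TMM, and 4 members were called. No call of a named gene changed direction in the alternatives run. Pdia6 had log2 fold changes from −0.51 to −0.45 and Hspa12a from −0.96 to −0.80 over all alternatives, and both passed in each. Dnajc12 and the 9 untested members had few or no counts, so their values carry little precision.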
